A study of Mus musculus with 899 samples.

Results

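6 mature miRNA that are often used as reference molecules in plasma were followed through mouse plasma, in 402 samples of C3H and 497 of C57Bl/6 mice: mmu-miR-423-5p, mmu-miR-423-3p, mmu-miR-191-5p, mmu-miR-425-5p, mmu-miR-484 and mmu-miR-320-3p. They were chosen by name, with earlier results of these data known. They are 6 of the 1915 miRNA in the count table and 6 of the 483 that had enough reads to be tested. All 6 passed the filter on low counts. The question put to each was how far its level stayed the same over strains, treatments and time points.

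The samples came from 196 gnotobiotic mice of both sexes, 8 to 12 weeks old at exposure. The strains were C3H (96 mice) and C57Bl/6 (100 mice), which received either a single X-ray dose to the whole thorax, set for each strain, or sham irradiation. Blood was drawn from the eye before exposure (PT) and again on day 2 or day 5 (each mouse gave 1 of these), then monthly from month 1 to month 4 in C3H and to month 6 in C57Bl/6, with a cardiac bleed at the end. Irradiated samples at the late months are from survivors. Titles also carry a G number, which the labels do not explain: 2 or 4 in C3H and 1 or 3 in C57Bl/6. Strain and G number therefore cannot be told apart completely, and from month 2 on samples were of G number 2 (C3H) and 1 (C57Bl/6) only. Of the 32 irradiated C3H mice of G number 2, 17 were sampled at month 4, and of the 36 irradiated C57Bl/6 mice of G number 1, 8 were sampled at month 6, against all 16 sham mice at both.

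Total counts per sample lay between 206490 and 11814515, with a median of 1475030, and 23 samples had fewer than 500000. The red cell miRNA miR-16-5p was the most abundant species in 897 samples, all but 2, and held a median of 46.2% of the reads. Levels are given as log2 CPM (counts scaled to a common library total) after TMM scaling, an adjustment for the overall make-up of each library. They are relative to the other miRNA of the library, so a changed release, a changed clearance and a changed total of the other miRNA cannot be told apart. 3 libraries, all from C57Bl/6 sham females of G number 3 at day 5, stood apart from the rest: the SD of their log2 deviations from each miRNA's median was 1.83 to 1.90, against at most 1.58 in any other library and a median of 0.713. Called differences of the 6 in C57Bl/6 mice at day 5 are given with and without them.

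A miRNA is cut as a hairpin from a longer transcript, and a single arm or both are loaded into Argonaute proteins, which the miRNA guides to messenger RNA through its seed (bases 2 to 8). In plasma, miRNA travel bound to protein or inside vesicles and stem largely from blood cells and endothelium. Since plasma has no agreed internal standard, miRNA with steady levels are used as the denominator for the others. The 6 molecules are of varied origin. Both arms of the miR-423 hairpin are used. miR-191 and miR-425 lie side by side and are made from a common transcript. miR-320 and miR-484 are made without the nuclear enzyme Drosha, which cuts most other hairpins.

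The mature sequences of 5 of the 6 are printed 5′ to 3′ with the seed in capitals, to show that no 2 of them share a seed (RefSeq, GRCm38.p6); miR-320-3p is named only.
mmu-miR-423-5p: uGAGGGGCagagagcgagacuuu
mmu-miR-423-3p: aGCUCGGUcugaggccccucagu
mmu-miR-191-5p: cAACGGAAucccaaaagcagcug
mmu-miR-425-5p: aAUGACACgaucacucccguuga
mmu-miR-484: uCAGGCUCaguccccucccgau
The miR-425-5p seed also stands in miR-489-3p and the miR-423-5p seed in miR-6921-5p among the miRNA of the table.

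Both miR-423 arms are read from the minus strand, the 3p arm at chr11:77078086-77078108 and the 5p arm at chr11:77078122-77078144, in an intron of Nsrp1. miR-191-5p lies at chr9:108568325-108568347 and miR-425-5p at chr9:108568789-108568811, both on the plus strand in an exon of the lincRNA 4833445I07Rik, with 384 bases between their hairpins. miR-484 lies at chr16:14159630-14159651 on the plus strand, opposite exon and UTR sequence of Marf1. The miR-320 hairpin gene spans chr14:70443510-70443591, 63 bases from Polr3d. These positions are in GRCm38.

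The 6 covered a wide range of abundance. miR-191-5p was the highest, with 12.67 ± 0.53 log2 CPM (SD over all samples), a median of 9853 reads and 0.740% of all reads. miR-423-5p followed at 10.51 ± 0.56 and miR-425-5p at 9.83 ± 0.42. miR-320-3p stood at 8.83 ± 0.45 and miR-423-3p at 8.58 ± 0.52, closer to each other than the SD of either. miR-484 was far below them at 5.29 ± 0.99, with a median of 58 reads and 3 samples without a read. Counting error alone gives an SD of 0.0145 log2 for miR-191-5p and 0.189 for miR-484 at these median reads, well under the SD seen in either.

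The lowest, median and highest single samples were 9.13, 10.41 and 13.24 log2 CPM for miR-423-5p, 6.51, 8.58 and 10.27 for miR-423-3p, and 10.41, 12.69 and 14.38 for miR-191-5p. They were 8.32, 9.81 and 11.06 for miR-425-5p, 6.74, 8.85 and 10.21 for miR-320-3p, and 0.23, 5.30 and 9.26 for miR-484, where 0.23 stands for a sample without a read. miR-425-5p had the narrowest span and miR-484 the widest.

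Ranked by SD over all samples among the 164 miRNA with a mean of at least 5 log2 CPM, miR-425-5p was 8th, miR-320-3p 16th, miR-423-3p 24th, miR-191-5p 30th and miR-423-5p 38th from the steadiest. miR-484 was 147th. The median SD of the 164 miRNA was 0.712 log2. The 5 smallest values belonged to miR-744-5p (0.324), let-7d-3p (0.355), miR-30a-5p (0.366), miR-148b-3p (0.368) and miR-30d-5p (0.379), none of them among the 6. The order depended on the scaling for miR-423-5p, which ranked 8th with total counts and 52nd with quantile normalization, while miR-425-5p stayed between rank 6 and rank 14, and miR-484 between 137 and 151. Against miRNA within 1 log2 unit of its own mean, miR-425-5p was bettered by 3 of 27 and miR-484 by 52 of 67.

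**Figure D1:**
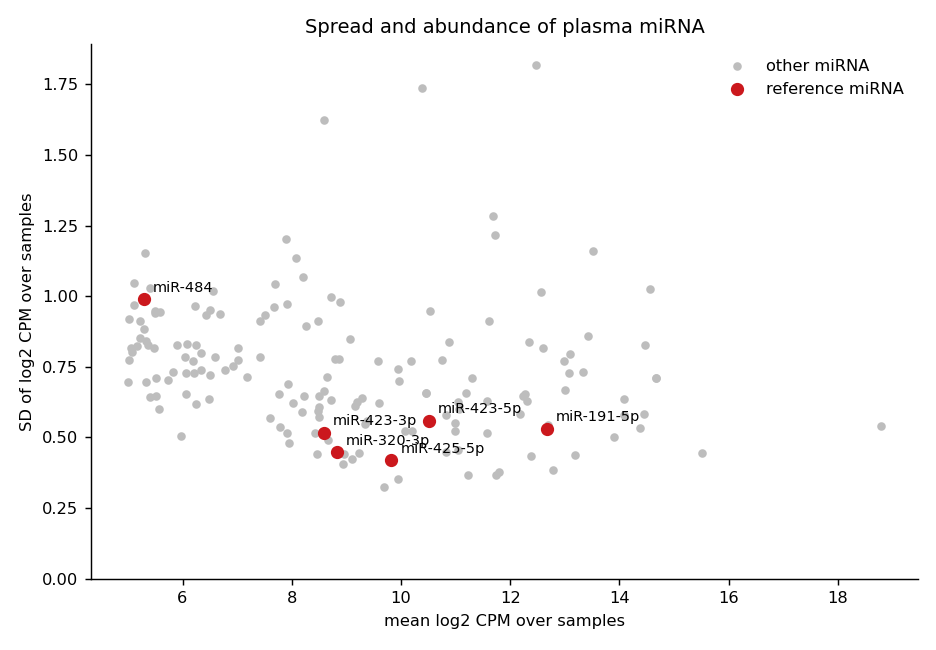
SD of log2 CPM over all samples (vertical axis) against mean log2 CPM (horizontal axis) for the 164 miRNA with a mean of at least 5, 1 point per miRNA, with the 6 reference miRNA in red. Among the 6, miR-425-5p, miR-320-3p, miR-423-3p, miR-191-5p and miR-423-5p lie between 0.42 and 0.56, under the median of 0.712, and miR-484 lies at 0.99.

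Variation between group means followed another order than variation within groups. Over the 32 groups of strain, treatment and time point, miR-191-5p had the smallest SD of group means of the 6 (0.224, rank 14 of 164), from 12.10 in C57Bl/6 sham mice at day 5 (12.33 without the 3 libraries that stood apart) to 13.02 in C3H sham mice at month 3, but a within-group SD of 0.497 (rank 45). miR-423-5p was the reverse, at rank 30 within groups (0.450) and rank 85 between groups (0.381): its group means ran from 9.94 in irradiated C3H mice at month 4 to 11.45 in C57Bl/6 sham mice at day 5, or 11.07 there without the same 3 libraries. miR-425-5p was low on both counts, with 0.353 within groups and 0.243 between them. miR-484 was high on both, with 0.886 and 0.461.

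**Figure D2:**
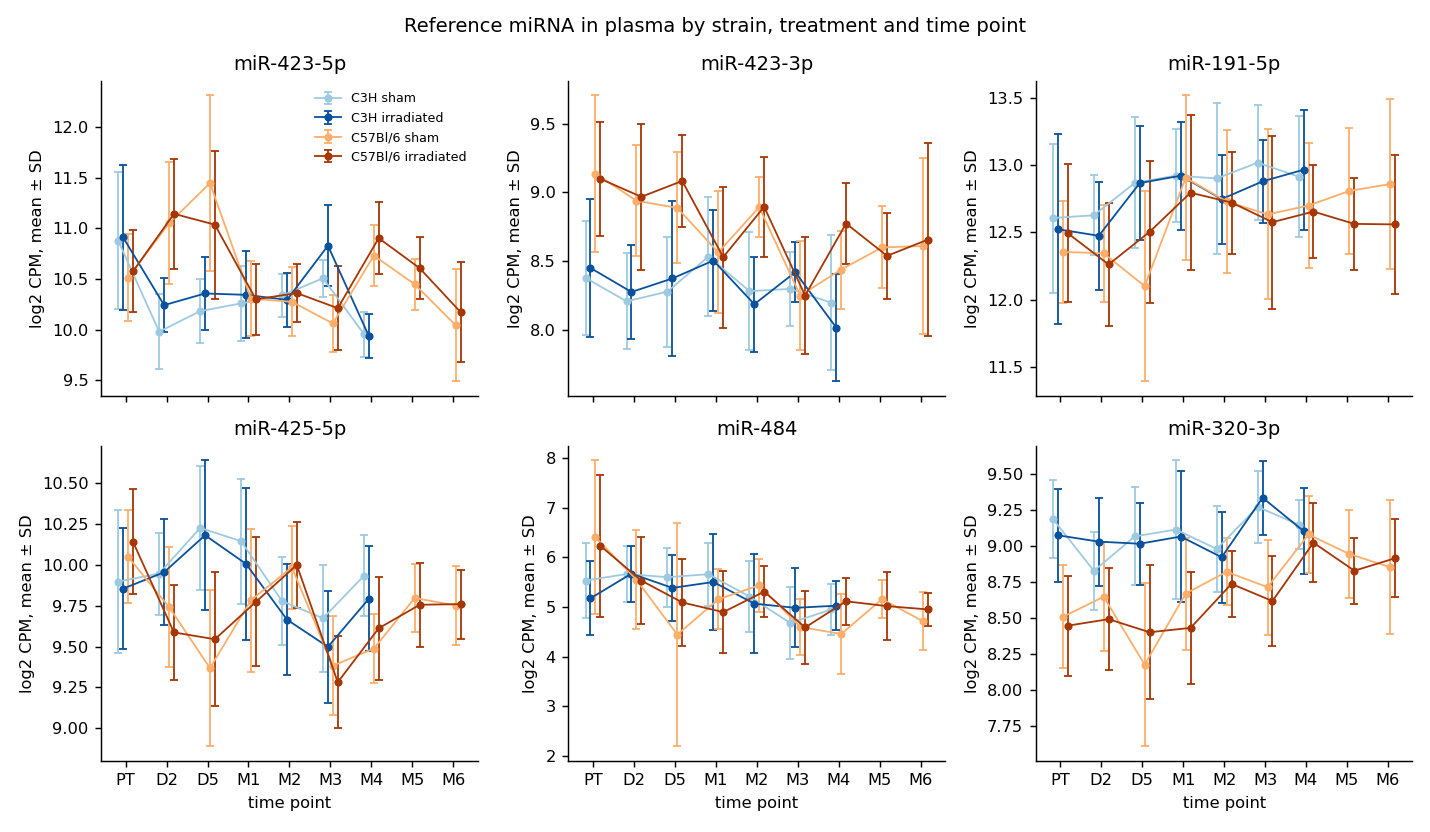
Mean ± SD of log2 CPM of each of the 6 miRNA (1 panel each, vertical axis) at PT, day 2, day 5 and months 1 to 6 (horizontal axis) in C3H and C57Bl/6 mice, sham or irradiated, with 8 to 68 samples per point. Sham and irradiated lines of a strain run close together, whereas strains and time points separate, most of all for miR-423-5p and miR-484.

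Irradiated and sham mice were compared within a strain at each time point in edgeR's quasi-likelihood model, and p-values were adjusted over the 483 miRNA by the Benjamini-Hochberg method, with a threshold of 0.05. The log2 differences come from this count model, which weighs mean counts, so they need not equal the difference of mean log2 levels. Before exposure none of the 6 differed between the arms in C3H, where edgeR called 0% of all miRNA, and the unadjusted p was below 0.05 for 1 of the 6 (miR-484, difference -0.37, p = 0.044). In C57Bl/6 none of the 6 differed at PT either, 0% of all miRNA were called, and 0 of the 6 had an unadjusted p below 0.05. Neither DESeq2 nor limma-voom called any of the 6 at PT in either strain.

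After irradiation of C3H mice, none of the 36 tests of the 6 miRNA over 6 time points passed edgeR's threshold, against 2.42% of all tests of the 483 miRNA; 1 of the 36 had an unadjusted p below 0.05, and neither DESeq2 nor limma-voom called any. The differences lay between -0.22 and 0.37 log2. The highest was miR-423-5p at month 3, where 27 irradiated mice had 10.83 ± 0.40 and 16 sham mice 10.51 ± 0.18 log2 CPM (difference 0.37, SE 0.15, edgeR adjusted p = 0.193). The median size of a difference was 0.081 log2 for the 6 and 0.248 over all miRNA. The 95% intervals of single differences reached from -0.71 to 0.86 log2, so single tests allow for differences up to that size.

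In C57Bl/6 mice, 2 of 48 tests of the 6 miRNA were called after irradiation, a share no larger than the 4.76% of all miRNA tests; 6 of the 48 had an unadjusted p below 0.05. The median size of a difference was 0.094 log2 for the 6 against 0.293 over all miRNA. The first call was miR-423-5p at day 5, where 1 of the 6 was called and 14.1% of all miRNA. The second was miR-320-3p at month 1, where 1 of the 6 was called and 3.73% of all miRNA. With a random effect for the mouse (limma-voom) only the call at day 5 remained, and with a fixed term for each mouse neither did.

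**Figure D3:**
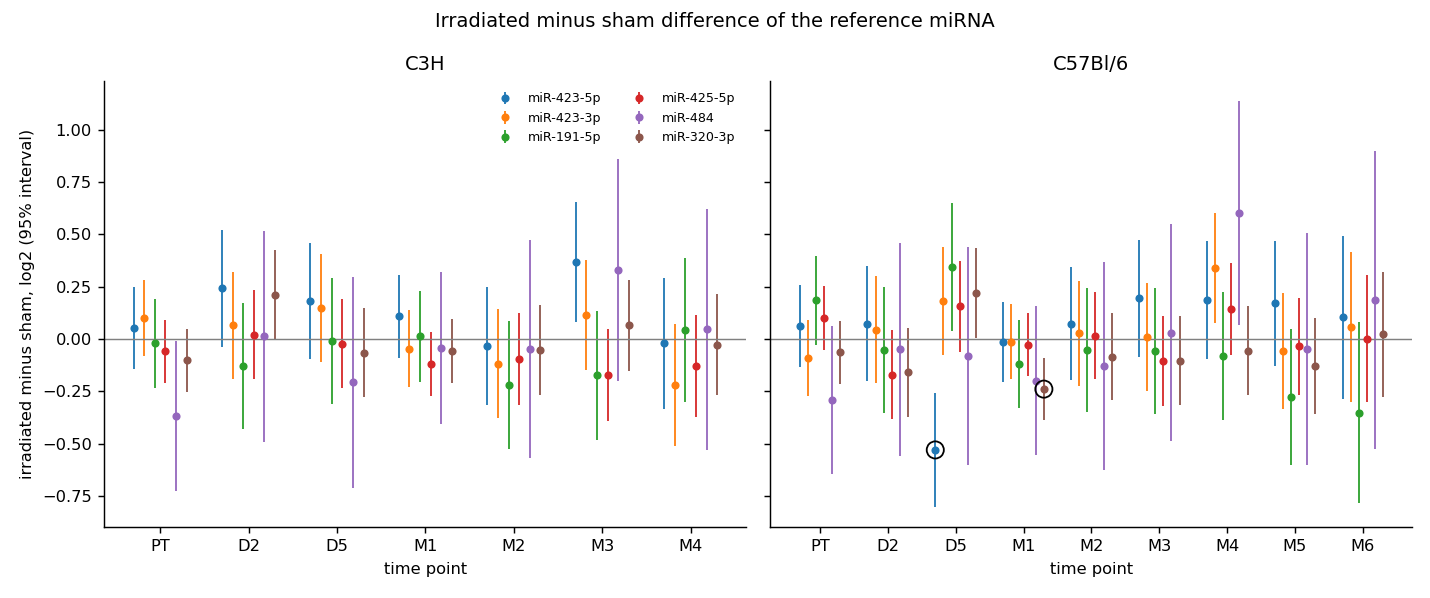
Irradiated minus sham log2 difference with its 95% interval (vertical axis) for each of the 6 miRNA at each time point (horizontal axis) in C3H and C57Bl/6 mice, with called differences circled. Only miR-423-5p at day 5 (-0.53) and miR-320-3p at month 1 (-0.24), both in C57Bl/6 mice, are circled.

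miR-423-5p at day 5 was lower in irradiated than in sham C57Bl/6 mice by 0.53 log2 (SE 0.14, edgeR adjusted p = 1.99e-03). The 32 irradiated mice ran from 9.93 to 12.21 with a median of 11.02 log2 CPM, and the 16 sham mice from 10.51 to 13.24 with a median of 11.22. The groups overlapped over most of their range. The 3 highest sham values, 13.15, 12.85 and 13.24, were those of the libraries that stood apart. These held 419427 to 613538 reads and 244 to 260 detected miRNA, against a median of 444 detected miRNA over all libraries. They also had no read of miR-484, and low levels of miR-320-3p (7.45, 6.74 and 7.13) and miR-191-5p (11.77, 11.17 and 10.41). After TMM scaling, red cell miRNA went both ways in them. Of the 5 listed, miR-144-3p, miR-144-5p, miR-486a-5p and miR-486b-5p were lower in each of the 3 than in any other female of G number 3 at day 5, as for miR-486a-5p at 12.61, 12.27 and 13.10 against 13.82 or more. miR-451a overlapped (9.94, 10.14 and 11.49 against 10.62 to 12.39), and miR-16-5p was higher (19.06, 19.31 and 20.12 against 18.24 to 18.97). As a share of reads, however, miR-16-5p was at 36.0%, 34.8% and 60.9%, against 29.3% to 48.2% in the other females, so its place depended on the scaling. The part of red cell miRNA in the result was not tested. Without the 3 libraries, the remaining 13 sham mice stood at 11.07 ± 0.34 log2 CPM against 11.04 ± 0.73 in the irradiated mice. The difference was then 0.11 with an edgeR adjusted p of 0.775.

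The direction at day 5 also depended on the G number, in comparisons added after the data had been seen. Among mice of G number 1, miR-423-5p was higher after irradiation in both sexes, with 11.73 ± 0.30 in 8 irradiated and 11.28 ± 0.26 in 4 sham females and 11.70 ± 0.23 in 8 irradiated and 11.24 ± 0.23 in 4 sham males (difference 0.46, edgeR adjusted p = 0.0621; fitted to G numbers 1 and 2 alone, 0.56 with an adjusted p of 6.32e-03). Among mice of G number 3 it was lower, with a difference of -1.71 (SE 0.15, adjusted p = 9.82e-25), and of -0.49 without the 3 libraries that stood apart (adjusted p = 0.0760). Without them the difference in G number 1, in which they play no direct part, was 0.49 with an adjusted p of 0.0302. In G number 3 the irradiated females lay between 9.93 and 10.63, and the 4 sham females at 11.20, 12.85, 13.15 and 13.24. The males of G number 3 differed far less, with 10.49 ± 0.20 in 8 irradiated and 10.67 ± 0.15 in 4 sham mice.

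The effect of irradiation at day 5 differed between G numbers 3 and 1 for 3 of the 6 miRNA and for 17.6% of all miRNA. The difference of effects was -2.18 log2 for miR-423-5p (adjusted p = 9.47e-18), 0.91 for miR-191-5p (adjusted p = 0.0179) and 0.61 for miR-425-5p (adjusted p = 0.0180). The 3 libraries that stood apart are 3 of the 8 sham libraries of G number 3 in this test. Without them 1 of the 6 was called, against 2.9% of all miRNA: the value was -0.99 for miR-423-5p (edgeR adjusted p = 6.78e-03), 0.47 for miR-191-5p (adjusted p = 0.445) and 0.20 for miR-425-5p (adjusted p = 0.652).

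**Figure D4:**
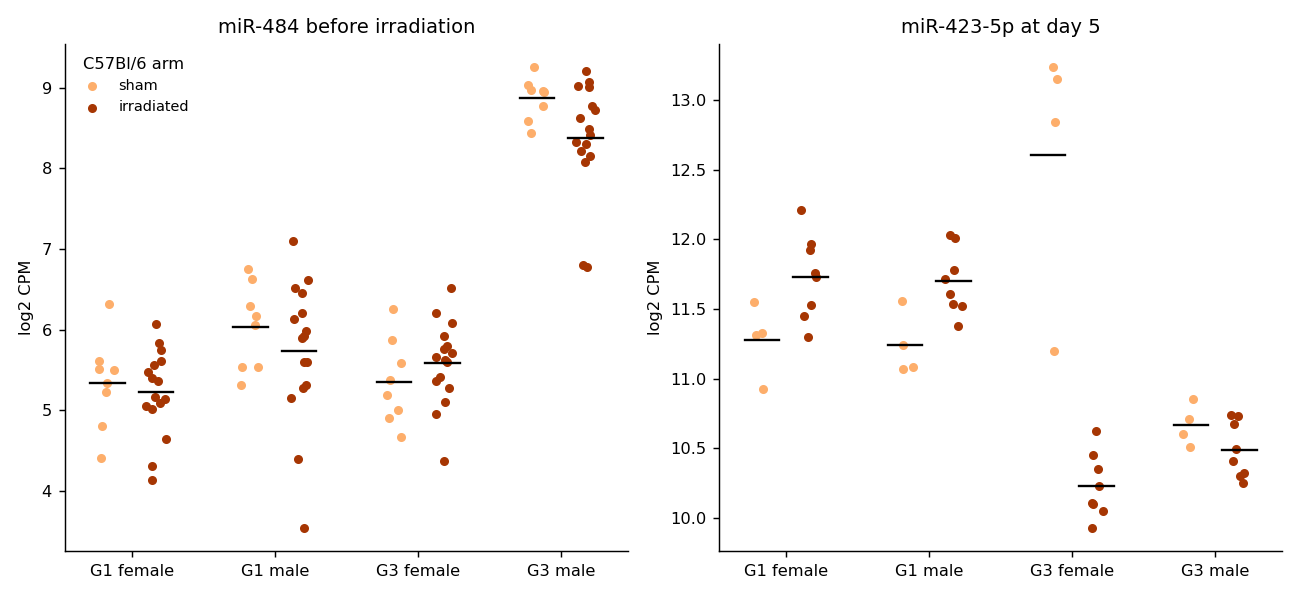
log2 CPM (vertical axis) of miR-484 at PT and of miR-423-5p at day 5 in C57Bl/6 mice by G number and sex (horizontal axis), 1 point per mouse, sham or irradiated, with bars at the means. The males of G number 3 stand above the others for miR-484 (mean 8.54), and 3 of the 4 sham females of G number 3 stand above all other mice for miR-423-5p (12.85 to 13.24).

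miR-320-3p at month 1 was lower in irradiated C57Bl/6 mice by 0.24 log2 (SE 0.07, edgeR adjusted p = 0.039). The 68 irradiated mice ran from 7.46 to 9.18 with a median of 8.40 log2 CPM, and the 32 sham mice from 7.84 to 9.76 with a median of 8.71. The groups overlapped almost completely. The difference was -0.16 within G number 1 (adjusted p = 0.535) and -0.28 within G number 3 (adjusted p = 0.169), so that it had the same sign in both but passed the threshold in neither. It was -0.38 in males (adjusted p = 0.0162) and -0.09 in females (adjusted p = 0.879), and whether the sexes differed was not tested. Without the 3 libraries that stood apart, which are of day 5 but enter the same fit, the difference was -0.20 and the adjusted p 0.116.

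The 4 largest differences that missed the threshold in C57Bl/6 mice were those of miR-484 (0.60, adjusted p = 0.206) and miR-423-3p (0.34, adjusted p = 0.124) at month 4, and of miR-191-5p at month 6 (-0.35, adjusted p = 0.632) and day 5 (0.34, adjusted p = 0.121), all by edgeR. At day 5 the sham mean of miR-191-5p was 12.10 with and 12.33 without the 3 libraries that stood apart, against 12.50 in the irradiated mice. With a separate mean for each G number, sex and time point, an alternative added later, miR-484 and miR-423-3p at month 4 were called as well.

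A test over 6 time points of whether irradiation acted differently in the strains called none of the 6 miRNA with edgeR and 4.35% of all miRNA; 2 of the 6 had an unadjusted p below 0.05, DESeq2 called 1 of the 6 and limma-voom 0. At day 5 alone 1 of the 6 was called, and 1.86% of all miRNA. This was miR-423-5p, whose effect was lower in C57Bl/6 than in C3H by 0.71 log2 (adjusted p = 0.0248), and by 0.06 without the 3 libraries that stood apart (adjusted p = 0.987).

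The strains differed more in size than the irradiated and sham arms did, although the sizes were not tested against each other. Before exposure all 6 miRNA differed between 96 C57Bl/6 and 96 C3H mice, against 50.7% of all miRNA, and the median size of the difference was 0.546 log2 for the 6 and 0.390 over all miRNA. miR-484 (1.65, SE 0.13), miR-423-3p (0.72) and miR-425-5p (0.20) were higher in C57Bl/6. miR-320-3p (-0.64, SE 0.05), miR-423-5p (-0.45) and miR-191-5p (-0.20) were lower there. The edgeR adjusted p was 1.1e-03 for miR-425-5p, 0.0235 for miR-191-5p and below these for the others.

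In single mice, miR-320-3p ran from 7.69 to 9.29 with a median of 8.45 log2 CPM in C57Bl/6 and from 8.38 to 9.83 with a median of 9.12 in C3H, so that the strains overlapped at their edges. miR-484 ran from 3.54 to 9.26 with a median of 5.78 in C57Bl/6 and from 2.78 to 6.71 with a median of 5.29 in C3H. Here the medians were close and the gap lay in a high tail of C57Bl/6 mice. Only miR-320-3p and miR-423-3p kept their direction and their call under all 16 other settings. miR-484 lay between -0.11 and 2.76 and miR-191-5p between -0.60 and 0.32 over the same settings, and miR-191-5p was called in 7 of them.

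The G number within a strain also separated the samples before exposure, with a median size of difference over the 6 of 0.701 log2 in C3H and 0.260 in C57Bl/6, in comparisons added after the data had been seen. In C3H, 5 of the 6 miRNA differed between G numbers 4 and 2, against 54.9% of all miRNA. miR-423-5p was lower in G number 4 by 1.24 log2 (SE 0.08), with 10.13 ± 0.28 in females and 10.44 ± 0.24 in males against 11.41 ± 0.33 and 11.62 ± 0.35 in G number 2. The highest mouse of G number 4 was at 10.87 and the lowest of G number 2 at 10.64, so that the sets barely overlapped. miR-484 (-0.77), miR-423-3p (-0.73) and miR-425-5p (-0.18) were also lower, and miR-191-5p was higher by 0.67. miR-320-3p differed by 0.07 (adjusted p = 0.411).

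A red cell measure moved with this split. The level of miR-451a, a red cell miRNA, minus that of miR-23a-3p was 1.84 in females and 1.64 in males of G number 2 and 0.38 and -0.78 in those of G number 4. Of the 5 red cell miRNA listed, miR-451a, miR-486a-5p and miR-486b-5p were higher in G number 2 in both sexes, while miR-144-3p and miR-144-5p were lower. The part of red cells in the difference was not tested.

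In C57Bl/6, 4 of the 6 miRNA differed between G numbers 3 and 1 at PT, against 31.5% of all miRNA. miR-484 was higher in G number 3 by 2.13 log2 (SE 0.17), miR-320-3p by 0.34 and miR-423-5p by 0.22 (adjusted p = 0.0209), and miR-425-5p was lower by 0.30. For miR-484 the gap lay in males: the 24 males of G number 3 ran from 6.78 to 9.26 with a median of 8.68 log2 CPM, while the females stood at 5.51 ± 0.52 and, in G number 1, females at 5.27 ± 0.53 and males at 5.84 ± 0.78. Neither arm had been exposed yet, and both held the high level, with a median of 8.95 in the sham males of G number 3 and 8.46 in those to be irradiated. Later means of these males were lower, 6.4 on day 2, 6.08 on day 5 and 5.27 in month 1. Their median total was 610583 reads, against 1191320 in the females of G number 3, and miR-484 had a median of 284.5 reads in them. The miR-451a to miR-23a-3p difference was 0.34 in these males at PT, 0.33 in males of G number 1 and -0.32 in females of G number 3, and in the males of G number 3 it was -0.48 at day 2, 0.15 at day 5 and -2.62 at month 1. Neither its part nor that of depth in the level of miR-484 was tested.

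Time changed the levels in sham mice. In C3H, 4 of the 6 miRNA changed over time, against 46% of all miRNA: miR-423-5p, miR-425-5p, miR-484 and miR-320-3p, with edgeR adjusted p of 9.73e-16, 2.80e-05, 4.81e-03 and 0.0180. Of 36 single tests against PT, 12 were called, a share of the kind seen over all miRNA (26.3%). miR-423-5p fell at 6 of 6 time points, by 0.51 to 1.06 log2, from 10.88 ± 0.68 at PT to 9.98 ± 0.37 at day 2 and 9.96 ± 0.22 at month 4. Within G number 2 the fall was 0.97 to 1.62, while G number 4 differed from its own PT level by -0.12 at day 2, -0.01 at day 5 and 0.15 at month 1. miR-484 fell at months 3 and 4 (-0.87 and -0.66) and miR-320-3p fell at day 2 (-0.36). miR-425-5p rose at day 5 and month 1 (0.31 and 0.23) and miR-191-5p rose at month 3 (0.38, edgeR adjusted p = 0.0499). From month 2 on, samples of G number 2 alone were set against PT samples of both G numbers. At PT, G number 4 minus 2 was -0.77 for miR-484 and 0.67 for miR-191-5p. None of the single tests of miR-423-3p was called and none had an unadjusted p below 0.05, with differences within 0.19 log2 of PT. Within G number 2, however, its sham mean went from 8.76 at PT to 8.14 at month 4 in females and from 8.65 to 8.03 at month 2 in males. Its test over all times passed with total counts, with sex and G number as covariates, in G number 2 alone, in males alone, and with a fixed term for each mouse.

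In C57Bl/6 sham mice, 6 of 6 miRNA changed over time, against 62.9% of all miRNA. Of 48 single tests against PT, 33 were called, against 26.9% of all miRNA tests; the 48 tests share their PT samples. The median size of a change was 0.429 log2 for the 6 and 0.482 over all miRNA. miR-484 fell at 8 of 8 time points, by 1.5 to 2.73 log2, and at day 5 by 1.91 with and 1.62 without the 3 libraries that stood apart. In G number 1 alone the fall was 0.38 to 1.37. In females alone the change lay between -1.33 and 0.16, and in males between -1.75 and -3.67. The high PT level of the males of G number 3 stands in the denominator of all 8 values.

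The other 5 moved less in C57Bl/6. miR-423-5p rose at day 2 (0.58) and day 5 (1.16, or 0.51 without the 3 libraries that stood apart, edgeR adjusted p = 0.00358, and 0.07 in males alone, adjusted p = 0.848) and fell at months 3 and 6 (-0.49 and -0.43). Its rise at day 2 was 1.04 in G number 1 and -0.07 in G number 3. miR-423-3p fell at months 1, 3, 4, 5 and 6, by 0.51 to 0.95. miR-425-5p fell at 6 of 8 time points, by 0.22 to 0.67, and at day 5 by 0.64 with and 0.55 without those libraries. miR-191-5p rose at months 1, 2, 4, 5 and 6, by 0.37 to 0.63, but the rise at month 2 was called in 7 and that at month 4 in 4 of 17 other settings. miR-320-3p had a called fall at day 5 (-0.28) that was -0.14 without those libraries (adjusted p = 0.437) and was called in 6 of 18 other settings. It rose at months 2, 4, 5 and 6, by 0.29 to 0.55. From month 2 on, samples of G number 1 alone were set against PT samples of both G numbers.

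Sex differences were smaller. In C3H, 3 of the 6 miRNA were higher in the 202 samples of females than in the 200 of males, against 15.7% of all miRNA called in either direction. These were miR-484 (0.33, 5.51 ± 0.77 against 5.15 ± 0.76), miR-320-3p (0.20, 9.17 ± 0.36 against 9.0 ± 0.32) and miR-423-3p (0.16, edgeR adjusted p = 3.7e-03). In C57Bl/6, 2 of the 6 were lower in the 251 samples of females than in the 246 of males, against 18.2% of all miRNA. These were miR-191-5p (-0.28, 12.44 ± 0.50 against 12.76 ± 0.54) and miR-484 (-0.40, 5.00 ± 0.87 against 5.54 ± 1.28). In G number 1 alone the miR-484 difference was -0.08. The sex difference itself differed between strains for 3 of the 6, miR-484 (-0.73), miR-320-3p (-0.26) and miR-191-5p (-0.23), against 13% of all miRNA, in a test added after the data had been seen. Samples of 1 mouse at several times were treated as separate in these tests.

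The sum of squares of each miRNA was divided among strain, time point within strain, G number and sex within time point, treatment, and the remainder, as a description. Treatment held 2.44% (miR-423-3p) to 8.13% (miR-423-5p), a share that also holds the differences between arms at PT, before exposure. It compares arm means in each of 48 sets, so part of it comes from the spread between mice alone. Time point held 34.6% for miR-423-5p and 11.2% for miR-191-5p. G number and sex held 20.5% (miR-320-3p) to 35.5% (miR-484). Strain held 26.3% for miR-320-3p and 15% for miR-423-3p, and under 4% for the other 4. The remainder was largest for miR-191-5p, at 58.6%, and smallest for miR-423-5p, at 27.9%. Over the 164 miRNA the medians were 2.97% for strain, 17.2% for time point, 17.9% for G number and sex, 5.66% for treatment and 48.6% for the remainder, so that 6 of 6 exceeded the median for G number and sex.

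**Figure D5:**
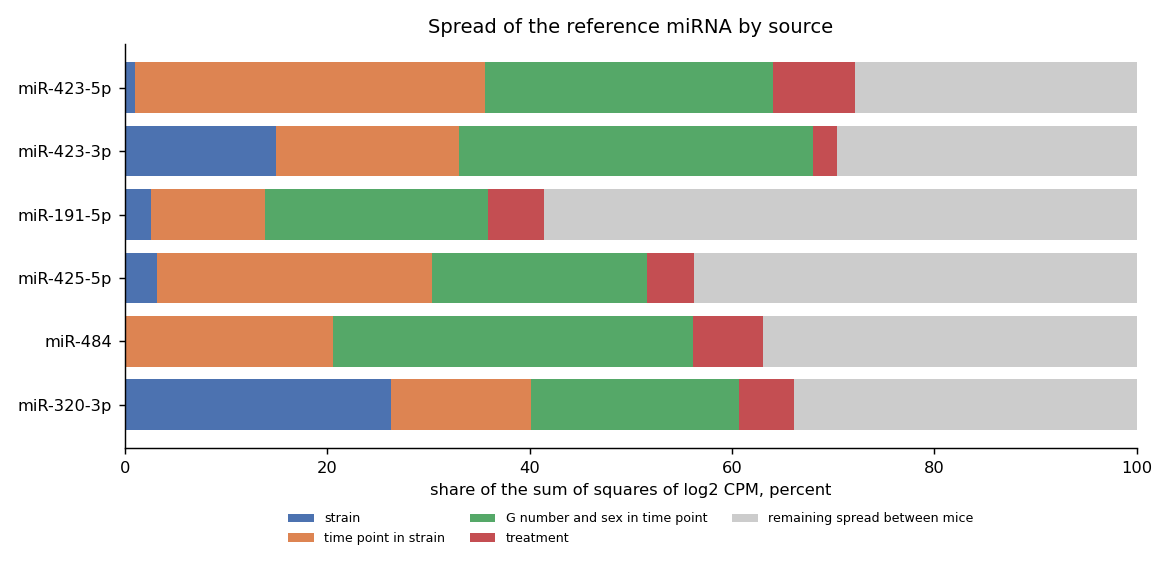
Shares in percent of each miRNA's sum of squares of log2 CPM (horizontal stacked bars, all samples) held by strain, time point within strain, G number and sex within time point, treatment, and the remainder. Treatment, which here includes the arms at PT before exposure, holds 2.44% to 8.13%, and G number with sex 20.5% to 35.5%.

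Irradiated and sham mice of the same strain, G number, sex and time point had like means. The 48 such sets include those at PT, when neither arm had been exposed. Over these 48 sets the median size of the difference between arms was 0.114 log2 for miR-425-5p and miR-423-3p and 0.223 for miR-484. Means of the irradiated arm were the higher ones in 34 of 48 sets for miR-423-5p and in 17 to 25 of 48 for the other 5. The widest differences of miR-423-5p (-2.38), miR-484 (3.66) and miR-191-5p (1.22) fell in 1 set, the females of G number 3 at day 5 that hold the 3 libraries that stood apart.

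Ratios between members need no scaling. Of the 15 pairs, miR-191-5p to miR-425-5p, from a common transcript, had the smallest SD of the log2 ratio over samples (0.550), followed by miR-425-5p to miR-320-3p (0.568) and the miR-423 arms (0.576). The widest was miR-423-5p to miR-484 (1.15). Averaged over its 5 pairs, miR-425-5p had the smallest SD (0.663) and miR-484 the largest (1.02). Even the arms of 1 hairpin did not keep a fixed ratio: the reads of miR-423-5p exceeded those of miR-423-3p from 2.36-fold in C3H males of G number 2 at month 1 to 7.86-fold in C57Bl/6 males of G number 1 at day 2. The ratio of miR-191-5p to miR-425-5p ran from 4.61 in C3H females of G number 2 at PT to 13.2 in C57Bl/6 males of G number 1 at month 3.

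The mean of the 6 was also used as a scale. Relative to TMM scaling it had an SD of 0.320 log2 over samples and 0.141 over group means, which ran from -0.37 to 0.22. Between irradiated and sham mice it shifted by at most 0.204 (C57Bl/6, month 4) upwards and 0.111 downwards (C57Bl/6, month 1). With this scale the number of C57Bl/6 calls after irradiation among the 6 went from 2 to 1. Each of the 6 is part of the scale, which removes any shift they share, so this count is no independent check.

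Group means of some other miRNA followed those of the 6 closely. By Pearson's r over the 32 group means, which share mice, depth and scaling and are given without a test, the nearest were miR-1198-5p to miR-423-5p (0.90), miR-132-3p to miR-423-3p (0.90), miR-301a-3p to miR-320-3p (0.85), miR-17-3p to miR-425-5p (0.85), miR-210-3p to miR-191-5p (0.78) and miR-92a-3p to miR-484 (0.76). Among the 6, miR-425-5p and miR-484 were nearest (0.75), while miR-191-5p and miR-425-5p reached 0.29. miR-423-5p and miR-191-5p ran in opposite directions (-0.63), as did miR-423-3p and miR-320-3p (-0.64).

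Before exposure, levels were related to depth and to the miR-451a to miR-23a-3p difference over the 96 mice of each strain. Of 24 relations 16 passed at an adjusted two-sided permutation p of 0.05, but within 1 G number only 8 (G numbers 2 and 1) or 5 (G numbers 4 and 3) did. In C3H, log2 total counts went with miR-191-5p (Pearson r = 0.518, Spearman rho = 0.490), miR-320-3p (0.497 and 0.519) and miR-425-5p (0.488 and 0.467). The permutation p was 1e-05 for r and for rho, the smallest that 100000 resamples can give, or 3e-05 adjusted, in these 3. Without the 2 mice farthest from the median depth, r was 0.532, 0.513 and 0.523. Within G number 2 it was 0.528, 0.685 and 0.730, and within G number 4 it was 0.307, 0.218 and 0.260. These 3 relations kept their sign in both, but none passed within G number 4 (adjusted permutation p = 0.114, 0.255 and 0.162). In C57Bl/6 the r with depth was 0.188 for miR-191-5p (adjusted permutation p = 0.0855), -0.278 for miR-320-3p (0.011) and 0.380 for miR-425-5p (3.8e-04). For miR-320-3p it was 0.170 within G number 1 and -0.181 within G number 3 (adjusted permutation p = 0.429 and 0.350). Split by G number and sex, it lay between 0.012 and 0.546. For miR-425-5p it was 0.137 and 0.147 within G numbers 1 and 3 (adjusted permutation p = 0.502 and 0.452).

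Some relations with the red cell measure did not keep their sign within the G numbers. In C3H, miR-423-5p went with it at r = 0.683 and rho = 0.688 (permutation p = 1e-05 for both, adjusted 3e-05, r = 0.683 without the 2 farthest mice), but r was 0.181 within G number 2 and -0.347 within G number 4. miR-423-3p had r = 0.542 and rho = 0.579 over all 96 mice (1e-05, adjusted 3e-05, 0.546 without the 2 farthest) and -0.344 and -0.260 within the G numbers. miR-484 had r = 0.617 and rho = 0.621 over all (1e-05, adjusted 3e-05, 0.610 without the 2 farthest). It kept its sign within G numbers 2 and 4, at 0.371 and 0.541. Split by sex within G number 4, however, r was -0.073 in females and 0.411 in males. In C57Bl/6, miR-484 went down with depth (r = -0.586, rho = -0.451, permutation p = 1e-05 for both, adjusted 3e-05, r = -0.574 without the 2 farthest). This r was 0.0079 within G number 1 and -0.578 within G number 3. Split by sex within G number 3, it was -0.047 in females and -0.405 in males. The pooled relations of both miR-423 arms with the red cell measure thus did not hold within the G numbers.

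Of 10 other miRNA used as references in plasma or tissue, 6 of 60 tests after irradiation were called in C3H, against 2.42% of all miRNA tests. In C57Bl/6 6 of 80 were called, against 4.76%. Among them were miR-103-3p at day 2 in both strains and let-7a-5p at day 5 in C57Bl/6 (-1.5). The let-7a-5p value includes the 3 libraries that stood apart. Its irradiation effect at day 5 differed between G numbers 3 and 1 with these libraries and was not called without them. miR-16-5p and miR-24-3p, which are on this list, ranked 33rd and 10th by SD among the 164 miRNA with TMM scaling. With total counts they ranked 1st and 15th, and with quantile normalization 1st and 17th. miR-16-5p led in 897 samples, at a median of 46.2% of reads. Quantile normalization gives the leading species nearly the same value in each sample, and total counts narrow the spread of a species this large. Its ranks of 1st therefore do not measure its steadiness. Strain differences before exposure were called for 8 of the 10, against 50.7% of all miRNA. Changes over time were called for 8 of 10 in C3H sham mice, against 46% of all miRNA, and for 10 of 10 in C57Bl/6, against 62.9%.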

How the data were processed

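Plasma small RNA was sequenced by the authors, who isolated RNA with a biofluids kit, built QIAseq libraries and counted reads per mature miRNA with the BaseSpace small RNA application (mm10 per the labels). The deposited values are raw counts, without normalization. Hemolysed plasma and runs with few reads had been left out by the authors. The miRBase release is not given in the sources used here, nor is the use of molecular identifiers, so counting errors cover counting only. The study itself used quantile-normalized log2 values with limma and voom; here the deposited counts were tested with a count model, and limma-voom was an alternative.

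Each sample was put in its strain, treatment, time point, sex, G number and mouse by its labels, and 0 columns were unmapped. Counts were scaled by TMM (factors 0.372 to 1.59) in edgeR 4.0.16 (R 4.3.3), and filterByExpr kept 483 of 1915 miRNA with 99.99% of the reads. 1 quasi-likelihood model with 32 group means (867 residual degrees of freedom) gave each contrast, with Benjamini-Hochberg adjustment over the 483 miRNA of the contrast. Levels are log2 CPM with a prior count of 2. The sex test used group means by sex. Total counts lay between 206490 and 11814515, and no 2 samples had identical values. The tests were checked on simulated counts.

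Samples of 1 mouse are paired by the labels: their deviations from group means correlated at 0.0813 on average over 1962 pairs, against -0.0008 for other pairs, and the block correlation was 0.0434. Irradiated and sham mice are different animals, so p-values of that comparison set it against the spread between mice within groups. The spread was pooled over all 32 groups, in which the same mice appear at several times. Tests of sham mice against PT have samples of the same mice on both sides, and the main model did not use this pairing.

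Alternatives were limma 3.58.1 (voom), DESeq2 1.42.0, DESeq2 size factors, total counts, quantile normalization, no filter (1403 miRNA), a random or fixed block for the mouse, only libraries of at least 500000 reads, only the 2 groups compared, covariates, and the 6 miRNA as scale. Tests by G number, fits by sex, and fits without libraries that stood apart were added after the data were seen. The members, the 10 other reference miRNA, the red cell list and the rule for named miRNA (the members, the 10 others where called, the 5 of smallest SD and those most like each member) were chosen with earlier results of these data known.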

Additional observations from a re-analysis of the deposited data

Results flagged for a closer look

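The effect of irradiation at day 5 differed between strains for miR-423-5p: irradiated minus sham was different by -0.71 log2 in C57Bl/6 relative to C3H mice (edgeR adjusted p = 0.0248), and it was -0.53 in C57Bl/6 and 0.18 in C3H. Without the 3 sham libraries that stood apart, the difference of effects was -0.06.

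Within C57Bl/6 at day 5, the effect differed between mice of G number 3 and G number 1 for miR-423-5p (-2.18), miR-191-5p (0.91) and miR-425-5p (0.61). Without the 3 sham libraries that stood apart, which belong to G number 3, these values were -0.99, 0.47 and 0.20, and only that of miR-423-5p passed the threshold.

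The difference between females and males differed between strains for miR-484, by -0.73 log2 in C57Bl/6 relative to C3H, for miR-320-3p by -0.26, and for miR-191-5p by -0.23. A sign change between strains was present for miR-484 (0.33 in C3H and -0.40 in C57Bl/6) and miR-320-3p (0.20 and -0.05), the latter value not passing the threshold. In G number 1 alone the C57Bl/6 difference of miR-484 was -0.08.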

How the results depend on the processing

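The 2 calls after irradiation in C57Bl/6 were 1 with limma-voom, total counts, the mouse as a replicate block, libraries of at least 500000 reads, the 6-member scale, females only, males only, or without the males of G number 3 at PT and the females of G number 3 at day 5; 0 with the mouse as a fixed replicate block, with only the 2 groups compared, or without the 3 libraries that stood apart; and 4 with quantile normalization or a block for G number, sex and time point. With only G numbers 1 and 2 fitted, C3H had 1 call in place of 0, and C57Bl/6 had 3 in place of 2 (miR-423-3p and miR-484 at month 4, and miR-423-5p at day 5 with its sign turned). The strain difference of the irradiation effect went from 0 to 1 call with DESeq2, its size factors, the 6-member scale, the block for G number, sex and time point, and females only. The sex difference in C57Bl/6 went from 2 to 4 calls with the 6-member scale. That scale is built from the tested miRNA themselves. The 16 correlations called became 8 within G numbers 2 and 1 and 5 within G numbers 4 and 3. Pairing samples by mouse otherwise left the calls in strain, time and sex within 1.5 times.

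Signs turned in these cases. With only G numbers 1 and 2, miR-423-5p at day 5 was 0.56 between irradiated and sham C57Bl/6 mice and 0.26 between strains in that effect, and at PT the strain difference was 0.32 for miR-191-5p and -0.068 for miR-484. With only G numbers 3 and 4, miR-423-5p was 0.15 (C3H month 1) and -0.068 (C57Bl/6 day 2) relative to PT, and 0.39 between strains. Without both sets of G number 3 libraries, miR-423-5p at day 5 was 0.42, its strain difference of effects 0.25, and miR-484 at day 2 relative to PT 0.10; without the 3 libraries alone, miR-423-5p at day 5 was 0.11. In males it was 0.30, with 0.16 between strains in effect, miR-191-5p between strains was 0.037, and miR-320-3p at month 6 was -0.059. In females, miR-484 was 0.16 at month 2 and -0.11 between strains, and at month 6 miR-423-3p was 0.445 and miR-423-5p 0.26. With the 6-member scale, C57Bl/6 changes from PT were 0.060 for miR-320-3p at day 5, 0.10 for miR-423-5p at month 3 and 0.024 for miR-425-5p at month 6; with total counts miR-320-3p in C3H at day 2 was 0.090. Within G numbers 2 and 1, correlations with depth were 0.136 (miR-423-5p, C3H), 0.0298 (miR-423-5p), 0.0079 (miR-484) and 0.17 (miR-320-3p) in C57Bl/6, and with the red cell measure in C3H -0.344 (miR-423-3p); within G number 4 the latter was -0.347 (miR-423-5p) and -0.26 (miR-423-3p). The causes were not tested.

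Total counts moved the median of all miRNA by -0.17 to 0.42 log2 in changes from PT, the 6-member scale by -0.04 to 0.50, and quantile normalization by -0.14 to 0.14. Of the values of called miRNA under the alternatives, 823 kept direction and call, 162 lost the call and 23 turned sign. Depth limits miR-484 most, at a median of 58 reads.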
